A study of Mus musculus with 20 samples.

Results

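The step from 2 h to 6 h after nuclear induction of IKZF1 was examined in chromatin-associated RNA of B3 cells, a pre-B cell line from mouse. It covers 4 of the 20 libraries of a 24 h time course, 2 at 2 h and 2 at 6 h, taken by time point. The step was chosen with earlier results of these data known. All cells of the series, the untreated ones included, carried Ikaros-ERt2, that is IKZF1 (Ikaros) fused to a mutant estrogen receptor domain and introduced by retrovirus. Untreated cells (0 h) are compared with cells given 500 nM 4-hydroxytamoxifen (4-OHT), which moves the fusion protein into the nucleus, for 0.5, 1, 2, 6, 12, 15, 18, 21 or 24 h. As a model it is 1 cell line with an added IKZF1 construct, and no library here had 4-OHT without the construct, so effects of 4-OHT and of IKZF1 cannot be told apart. The labels number the replicates without saying that they are separate cultures, and p-values therefore measure only the spread between libraries, which may be technical.

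IKZF1 is a zinc finger transcription factor needed for lymphoid development. In large, cycling pre-B cells a pre-B cell receptor (pre-BCR), made of the mu heavy chain and the surrogate light chains encoded by Igll1 and Vpreb1, signals through Cd79a and Cd79b and drives proliferation. Differentiation to small pre-B cells goes with loss of the surrogate light chains, exit from the cycle, and opening of the Igk locus. Chromatin-associated RNA is rich in transcripts still being made, so that the counts, which include introns, follow transcription more closely than total RNA would.

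The 4 libraries held 36305747 to 44291601 counts (33296158 to 46868954 over the 20), and 16601 of 56239 genes reached the minimum for testing, 10 counts in 2 of the 20 libraries. Markers of pre-B cells summed to 16270 and 16240 counts per 1000000 counts of the library (CPM) at 2 h and to 13180 and 13150 at 6 h, a sum made up mostly of Ebf1, while 6 of the 10 tested markers had a positive and 4 a negative log2 fold change (median 0.361). Rag1, Rag2 and the kappa constant gene Igkc were listed at 0 in all 4 libraries. Genes that dividing cells use, such as Rpl13, Rpl24, Rpl35, Tk1 and mt-Atp6, were also listed at 0, so a 0 in this table does not show that a gene or a cell type was absent. The T cell list summed to 85.8 and 88.4 CPM at 2 h against 48.7 and 47.2 at 6 h, with Cd3e at 0. Plasma cell markers gave 42.1 and 40.4 against 41.6 and 38.0 CPM, myeloid markers 1.38 to 2.30 CPM over the 4 libraries, with Itgam, S100a8 and S100a9 at 0, and erythroid markers 0.523 to 0.788 CPM, with Hba-a2, Hbb-bs and Alas2 among those at 0. Mitochondrial transcripts took 0.138 and 0.140% of counts at 2 h and 0.268 and 0.274% at 6 h, and the part of this share and of the marker levels in the changes below was not tested. Ikzf1 itself, to which reads of the construct may have been added, stood at 5523 and 5471 CPM at 2 h and 6933 and 6821 at 6 h (log2 fold change 0.32 ± 0.04 SE, adjusted p = 6.3e-07).

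To ask what changed after the first wave of repression, libraries at 6 h were compared with those at 2 h. Levels are given below as CPM scaled by TMM factors, which ran from 1.0475 to 1.0558 in the 4 libraries. With edgeR's quasi-likelihood test, 649 genes rose (3.91% of those tested) and 542 fell (3.26%) at an adjusted p under 0.01 and a fold change above 2. All 1191 moved the same way in both same-numbered pairs of libraries. The change was over 4-fold for 206 of the genes that rose and 116 of those that fell, while the median log2 fold change of all tested genes was 0.034. At any fold change, 5708 genes passed the adjusted p, 19.6% of those tested being higher and 14.8% lower, and 52.7% had an unadjusted p under 0.05. In bulk RNA, a change in the share of cells expressing a gene cannot be told from a change per cell. Among genes that rose, 84 had at most 3 counts in both libraries at 2 h, and among genes that fell, 43 had at most 3 counts in both at 6 h. Protein-coding genes made up 55.6% of the genes that rose, 65.7% of those that fell and 78.5% of all tested genes, differences that were not tested. Long intergenic RNAs made up 18.5%, 16.1% and 7.11% of these sets. Called genes lay at lower levels, with medians at 2 h of 0.469 CPM for rises, 1.24 for falls and 7.44 for all tested genes. An average of at least 1 CPM over the 4 libraries was reached by 320 of the 649 rises and 245 of the 542 falls. The part of low levels in the differences of gene type was not tested.

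**Figure D1:**
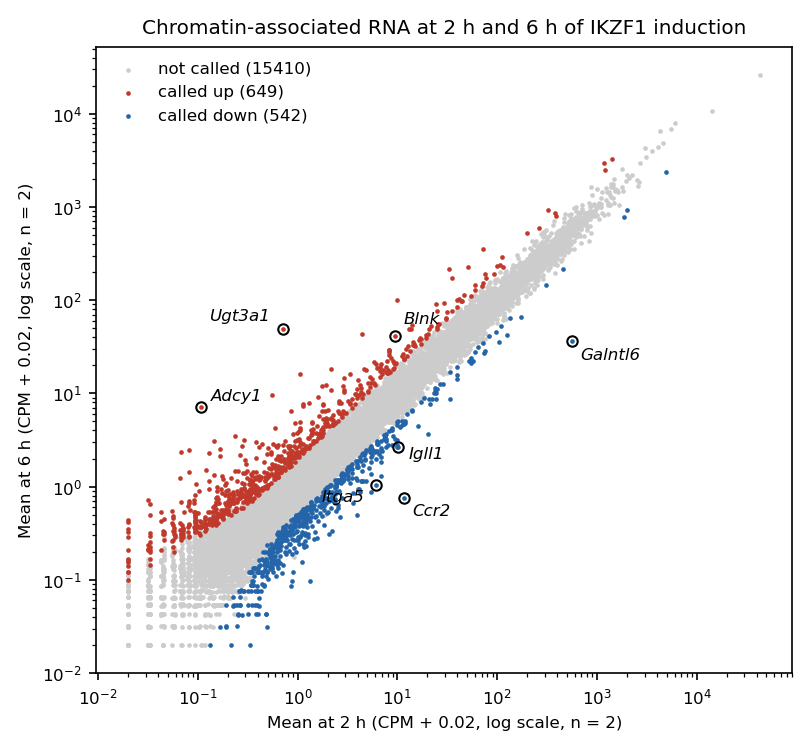
Mean level of each of the 16601 tested genes at 2 h (horizontal) and 6 h (vertical), in CPM plus a small constant on log axes, each a mean of 2 libraries without error bars. Red points are the 649 genes called up, blue points the 542 called down and grey points the rest, and 7 genes described in the text are circled, with Ugt3a1 and Adcy1 far above and Galntl6 and Ccr2 far below the diagonal.

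Genes with very low levels at 2 h made the largest rises. Ugt3a1 (chr15:9276888-9315032, GRCm38, plus strand), a UDP-glycosyltransferase, had 0.705 and 0.671 CPM at 2 h and 48.0 and 49.95 at 6 h. This is a log2 fold change of 6.15 ± 0.08 (SE, adjusted p = 8.8e-23). At 12 h it stood at 49.9 and 49.5 CPM, and at 24 h at 893 and 882. Adcy1 (chr11:7063489-7178506), an adenylate cyclase, went from 0.104 and 0.0694 CPM, or 4 and 3 counts, to 7.54 and 6.62 (log2 fold change 6.31 ± 0.26). At 24 h Adcy1 stood at 86.7 and 87.3 CPM. Ms4a4a, a membrane protein of the family of Cd20, rose from 0.157 and 0.0926 to 2.94 and 3.19 CPM, and Slco1b2, an organic anion transporter, from 0.104 and 0.116 to 2.36 and 2.18. Scn8a, a voltage-gated sodium channel, rose from 0.235 and 0.301 to 3.46 and 2.80 CPM. All of these were higher at 24 h than at 6 h in both libraries. For Olfr164, an olfactory receptor gene, and Gm11983, the levels at 2 h rested on 1 to 3 counts, against 97 to 113 counts at 6 h.

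A second group among the 12 largest rises was high at 6 h and low again at 12 h. Cdk15, a cyclin-dependent kinase, had 0.522 and 0.555 CPM at 2 h, 9.29 and 9.79 CPM by 6 h, then only 1.29 and 1.37 at 12 h. Cntn3, a contactin adhesion protein, went from 1.02 and 1.04 to 15.8 and 16.3 and back to 1.55 and 0.648 CPM. Olah, a thioesterase of fatty acid synthesis, had 3.25 and 3.73 CPM at 6 h but 0.230 and 0.299 at 12 h. Vwc2l, a secreted protein, and Gm10800, a predicted gene with near-identical copies in the genome whose reads are therefore uncertain, followed the same course. Of the 649 genes that rose, 127 were below 0.5 of their 6 h level at 12 h and 103 at both 12 h and 24 h, whereas 243 were above 2 times that level at 24 h. Over the whole table, 638 genes (3.84%) changed more positively from 2 h to 6 h than from 6 h to 12 h and 517 (3.11%) more negatively, a number that was 331 without 6 h replicate 1 and 321 without 6 h replicate 2.

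Among the largest falls was that of Galntl6 (chr8:57774052-58912640, minus strand), an N-acetylgalactosaminyltransferase-like gene that overlaps several annotated genes. It had 564 and 568 CPM at 2 h and 35.9 and 37.3 at 6 h, a log2 fold change of -3.95 ± 0.06 (SE, adjusted p = 3.2e-21). It had come from 820 and 844 CPM at 0 h. Ccr2 (chr9:124101950-124113557), a chemokine receptor gene, dropped from 12.1 and 11.01 to 0.724 and 0.755 CPM, after 29.2 and 29.1 CPM at 0 h. The receptor tyrosine kinase gene Alk fell from 4.93 and 5.85 to 0.887 and 0.841 CPM. Epha2, an ephrin receptor, fell from 2.61 and 2.48 to 0.607 and 0.517 CPM. Enpp6, a choline phosphodiesterase, had already gone from 53.9 and 53.8 CPM at 1 h to 4.80 and 4.88 at 2 h, and reached 1.12 in both libraries at 6 h. Grhl3, an epithelial transcription factor, Ntm, a neuronal adhesion protein, Zc3h12c, a zinc finger ribonuclease of the Zc3h12 family, Sh2d4a, an SH2 domain adaptor, and 1700016D06Rik were other large falls together with Itga5 below (log2 fold changes -2.79 to -2.02). Of the genes with the largest changes named here, Galntl6, Alk, Ntm, Sh2d4a, Enpp6, Zc3h12c, Itga5, 1700016D06Rik, Cntn3, Olah and Olfr164 overlap another annotated gene, and with the strand setting of the counting not given their reads may be shared, as may those of Hsp90b1, Pdia4, Bach2 and Adgrv1 below.

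**Figure D2:**
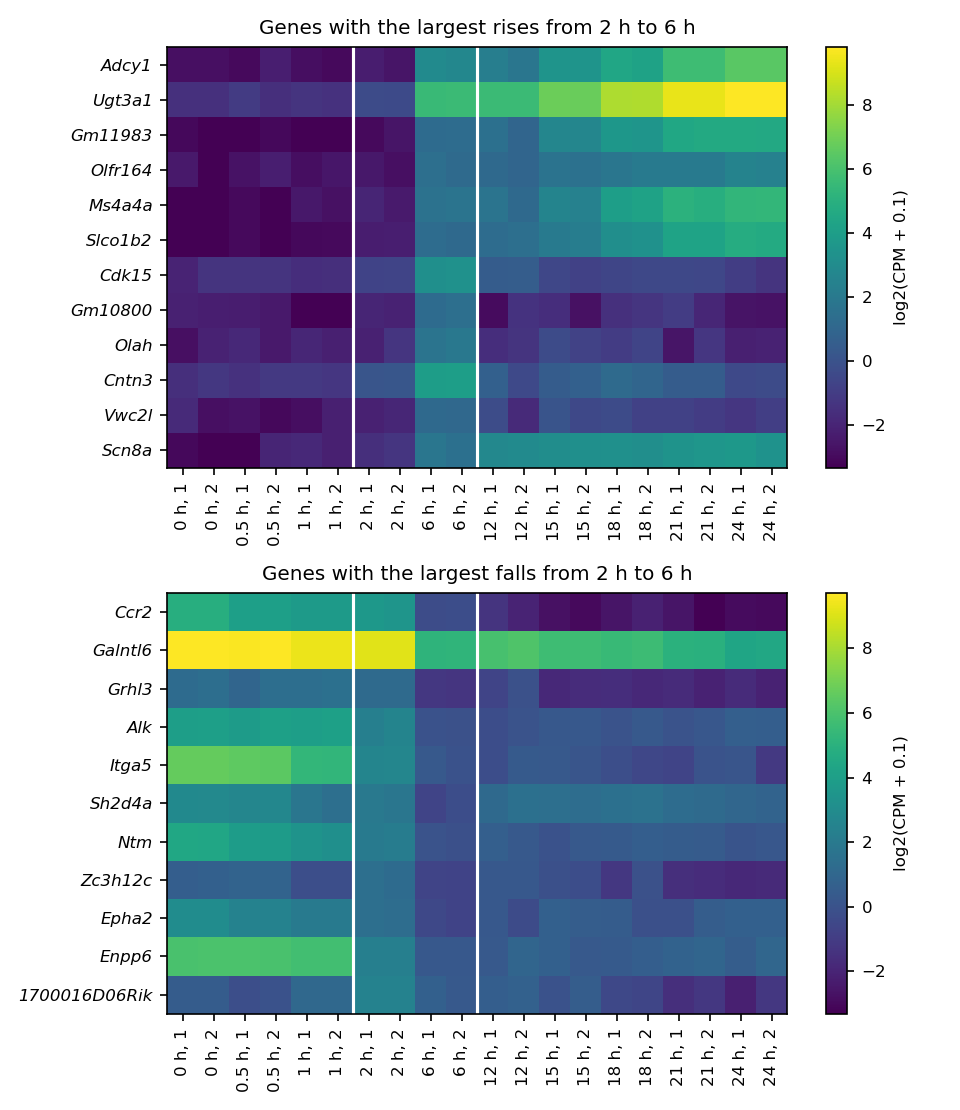
Level of the 12 protein-coding genes with the largest rises (top) and 11 of the 12 with the largest falls (bottom) in each of the 20 libraries, as log2(CPM + 0.1) in color, with white lines around the 4 libraries at 2 h and 6 h. Ugt3a1 and Adcy1 rise further by 24 h, Cdk15 and Cntn3 are high at 6 h and low at 12 h, and Galntl6 drops between 2 h and 6 h.

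The genes of the first wave were then followed into this step, using contrasts that share no library with it. At 1 h against 0 h, 803 genes were called down (4.84% of all tested) and 386 up (2.33%), and at 30 min 68 (0.410%) and 9 (0.0542%). The labels do not say whether the 0 h libraries came from 1 culture. Of the 803 genes called down at 1 h, 67 fell further between 2 h and 6 h (8.34%, against 3.26% of all genes) and 41 rose (5.11%, against 3.91%). Their median log2 fold change in the step was 0.055, close to the 0.034 of all genes. Of the 386 called up at 1 h, 59 rose further (15.3%) and 29 fell (7.51%). Of the 68 called down at 30 min, 4 rose and 4 fell, and of the 9 called up, 1 rose and 1 fell.

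Igll1 (chr16:16860671-16863985) and Vpreb1 (chr16:16868403-16870843), the surrogate light chain genes, were among those that fell on. Igll1, with 167 and 170 CPM in untreated cells, went from 10.6 and 9.53 at 2 h to 2.54 and 2.78 by 6 h (log2 fold change in the step -1.91 ± 0.10, adjusted p = 2.8e-12). Vpreb1 went from 3.34 and 3.26 at 2 h to 1.00 and 1.12 CPM at 6 h (log2 fold change -1.63 ± 0.16, adjusted p = 4.0e-08). Neither overlapped between the time points. The fall of Igll1 was smaller in this step than from 0 h to 2 h (difference in log2 fold change 2.15, adjusted p = 2.5e-10). Itga5, the alpha subunit of the fibronectin receptor, went from 5.98 and 6.34 to 1.14 and 0.884 CPM. Ramp1, a co-receptor subunit, fell from 2.43 and 2.78 to 1.03 and 1.23 CPM after 70.1 and 67.6 CPM at 0 h. Ccr2 and Sh2d4a complete the 3 largest falls among genes of the first wave.

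Other genes that had fallen by 2 h turned upward, among them Plekho2, a target named by the study. Plekho2, a pleckstrin homology domain protein, had 150.5 and 145.6 CPM in untreated cells and rose in the step from 8.98 and 9.44 to 21.3 and 21.2 (log2 fold change 1.20 ± 0.07, adjusted p = 9.7e-12), with 22.2 and 22.8 at 24 h. Ndrg1, a stress-responsive gene chosen after its values were seen, had 77.2 and 77.6 CPM in untreated cells and rose in the step from 4.72 and 4.54 to 18.5 and 17.6. At 6 h both genes were still below their levels at 0 h. Among the other targets named by the study, Gfra2, a receptor for neurturin, passed the adjusted p with less than 2-fold change, from 46.2 and 46.3 to 28.2 and 28.0 CPM (adjusted p = 8.8e-12). The same held for Hs3st3b1, a heparan sulfate sulfotransferase (43.1 and 39.2 to 29.3 and 30.0 CPM), for Endod1 (31.3 and 32.5 to 25.9 and 28.1) and for the transcription factor Bcl11a (120.6 and 119.1 to 102.7 and 105.2). Lrrfip1, at 114.7 and 112.2 CPM at 2 h, was higher at 6 h by less than 2-fold (128.8 and 128.7, adjusted p = 0.00256). Myc had 27.6 and 26.7 CPM at 2 h and 34.0 and 30.7 at 6 h, which did not pass (adjusted p = 0.032), and Ccnb1, Ccnd2, Dntt, Espnl, Serpinf1 and Hs3st2 also did not pass. The largest rises among first-wave genes, all called up at 1 h, were those of Adgrv1, an adhesion G protein-coupled receptor (4.31 and 4.44 to 43.2 and 43.9 CPM), Klra7, a Ly49 receptor (0.835 and 0.856 to 6.72 and 6.32), and Olfr221, an olfactory receptor gene (1.04 and 1.16 to 7.57 and 7.72).

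Some signaling components of the pre-BCR rose while the surrogate light chains fell. In the list of 15 pre-BCR genes, 3 rose, 2 (Igll1 and Vpreb1) fell and 10 were not called, against 3.91% up and 3.26% down of all tested genes. Blnk (chr19:40928927-40994535), the adaptor that links the receptor to downstream kinases, went from 25.2 and 24.9 CPM at 0 h to 9.55 and 9.32 by 2 h and rose to 41.5 and 40.2 at 6 h (log2 fold change 2.11 ± 0.06, adjusted p = 2.9e-16). Its change from 2 h to 6 h exceeded its change from 0 h to 2 h by 3.52 on the log2 scale (adjusted p = 1.6e-15). Cd79b, a signaling chain of the receptor, went from 20.7 and 20.1 to 43.6 and 43.9 CPM. Syk and Cd79a were also higher at an adjusted p under 0.01, by less than 2-fold (256.7 and 248.2 to 369.0 and 368.0 CPM for the kinase Syk). Of the 15, 7 were higher and 4 lower at an adjusted p under 0.01 at any fold (19.6% and 14.8% of all genes). Igll1 and Vpreb1 were among the 4.

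Of 28 B lineage transcription factors tested, 2 rose and none was called down (3.91% and 3.26% of all tested genes). Ets1, which restrains terminal B cell differentiation, went from 114.5 and 110.8 to 286.2 and 292.9 CPM, and Bach2, a repressor of the plasma cell program, from 1201 and 1194 to 2457 and 2479. By edgeR 13 members were higher and 5 lower at an adjusted p under 0.01 regardless of fold (19.6% and 14.8% of all genes), and DESeq2 likewise called 2 up and none down. Foxo1, a regulator of light chain recombination, was higher (1765 and 1774 to 2573 and 2581 CPM) and Ebf1, a founding factor of the lineage, lower (14080 in both libraries to 10750 and 10810). Of 23 surface and homing receptors, Il2ra (Cd25, a marker of small pre-B cells), the tetraspanin Cd53 and the cytokine receptor Flt3 rose (3.91% of all genes). Il2ra had 2.74 and 2.87 CPM at 2 h and 6.30 and 6.75 at 6 h, and Cd53 106.8 and 107.7 against 239.8 and 237.4. Flt3, from 4.59 and 4.23 to 9.46 and 8.28 CPM, sat at the 2-fold limit and was not called under DESeq2 or without 2 h replicate 2 or 6 h replicate 1 (log2 fold change 1.01, 0.98, 0.95 and 0.91 in turn).

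**Figure D3:**
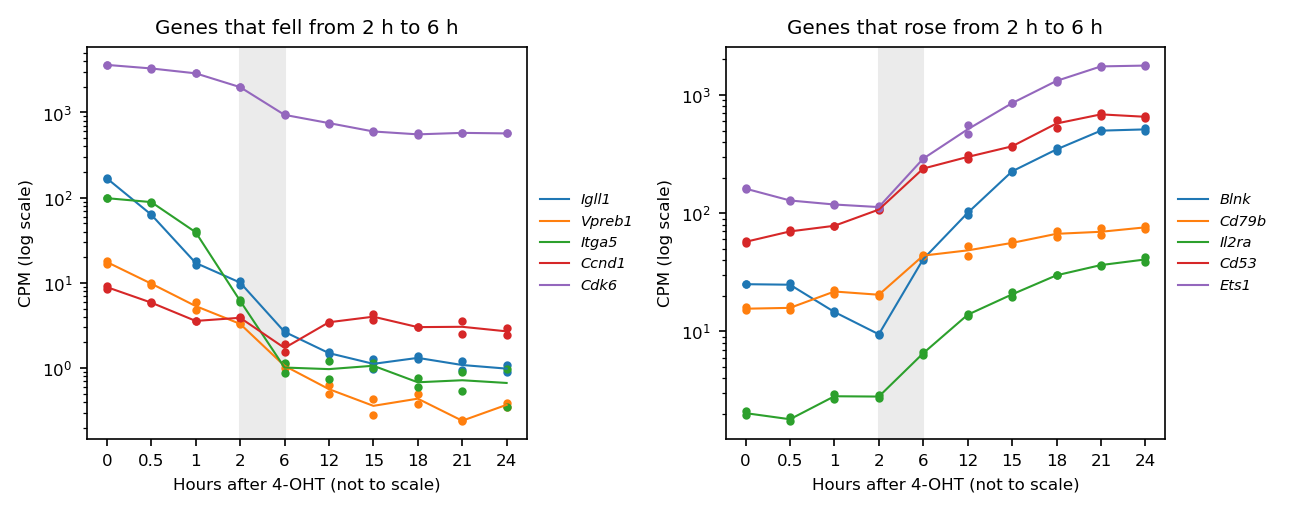
Level in CPM (log axis) of 5 genes that fell and 5 that rose between 2 h and 6 h, at each of 10 time points of 4-OHT treatment. Points are single libraries, lines join means of 2, the grey band marks the step, and hours are evenly spaced rather than to scale. Igll1, Vpreb1 and Itga5 fall through the step to 2.78 CPM or less, whereas Blnk and Ets1 turn upward at 2 h.

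Reads over the variable segments of the kappa light chain locus became more frequent. The 160 annotated Igkv segments lie at chr6:67555497-70704177 and together held 1117 and 1288 counts at 2 h and 2403 and 2711 at 6 h, or 30.8 and 31.5 against 59.2 and 61.2 CPM of library total. The corresponding values were 18.5 and 18.8 CPM at 0 h and 110.8 and 98.2 at 12 h. Segments with 10 counts or more numbered 11 and 14 at 2 h and 37 and 41 at 6 h. By the test, 34 of the 63 segments that passed the count filter rose and 1, Igkv4-70, fell, but most of the 63 passed through later time points and only 10 would have passed on the 2 h libraries, so this count is a description only. The segment with most counts at 2 h, Igkv4-71, had 369 and 436 counts there and 351 and 360 at 6 h (log2 fold change -0.31 ± 0.11, adjusted p = 0.022 by edgeR, not called). Igkv14-111, the next by counts over the 4 libraries, had 244 and 270 counts at 2 h and 415 and 512 at 6 h (log2 fold change 0.72 ± 0.12). Igkv1-110 had 170 and 217 against 369 and 396 (0.86 ± 0.08). Igkv2-116 rose from 11 and 12 counts to 65 and 90. Many segments are close in sequence, and the way shared reads were counted is not given, so the division among segments is uncertain. In the list of light chain constant and recombination genes, 7 of 13 were tested and none was called by edgeR or DESeq2, with 4 at an unadjusted p under 0.05 (52.7% of all genes). At an adjusted p under 0.01 and any fold, 3 of the 7 were higher and 0 lower (19.6% and 14.8% of all genes).

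Of 26 cyclins, kinases and inhibitors, 2 were called down and none up (3.26% and 3.91% of all genes). Cdk6, the D-cyclin partner kinase, fell from 1980 and 1988 to 928 and 947 CPM (log2 fold change -1.08 ± 0.03, adjusted p = 1.3e-16). Ccnd1, a D-type cyclin, fell from 3.97 and 3.82 to 1.91 and 1.53 CPM and was back at 3.51 and 3.39 at 12 h. The inhibitor Cdkn1b, at 13.5 and 14.3 against 26.9 and 27.1 CPM, stayed just under 2-fold (log2 fold change 0.96). Neither edgeR nor DESeq2 called any of 31 DNA replication genes, 25 mitosis genes or 10 genes of the MYC network, of which 15, 12 and 6 had an unadjusted p under 0.05 (52.7% of all genes). Their median log2 fold changes were 0.021, 0.057 and 0.178. At an adjusted p under 0.01 and any fold, 2, 7 and 4 were higher (19.6% of all genes). In that order 5, 1 and 0 were lower (14.8% of all genes). None of 40 ribosome biogenesis genes, 44 ribosomal protein genes, 13 small nucleolar RNA host genes or 22 glycolysis genes was called by either tool, with 27, 21, 13 and 18 at an unadjusted p under 0.05 (52.7% of all genes). At an adjusted p under 0.01 and any fold, 17 ribosome biogenesis genes, 11 ribosomal protein genes and 9 host genes were lower (14.8% of all genes) and 3, 0 and 1 higher, while 12 glycolysis genes were higher (19.6% of all genes) and 1 lower. The first 3 of these lists had medians of -0.176, -0.067 and -0.394, and glycolysis 0.211.

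Genes linked to FOXO factors and quiescence rose in 4 of 19 cases and fell in none (3.91% and 3.26% of all genes), with a median log2 fold change of 0.423. Cited2, a transcriptional co-regulator, went from 7.88 and 8.68 to 29.7 and 29.1 CPM (log2 fold change 1.83 ± 0.10). Ccng2, an atypical cyclin, went from 16.7 and 17.1 to 39.9 and 39.4. Fbxo32, a ubiquitin ligase subunit, and Tob1, an antiproliferative protein, also rose. In all 15 members were higher at an adjusted p under 0.01 at any fold (19.6% of all genes). Trp53inp1, of the p53 list, went from 38.4 and 41.1 to 100.1 and 102.6 CPM. It was the only one of 15 called there, against 3.91% up and 3.26% down of all genes. At an adjusted p under 0.01 and any fold, 3 of the 15 were higher and 3 lower (19.6% and 14.8% of all genes). The median log2 fold change of the p53 list was -0.121. None of 7 BCL2 family genes was called by edgeR or DESeq2 (5 at an unadjusted p under 0.05, against 52.7% of all genes).

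Of 29 immediate early and MAPK feedback genes, 6 rose and 1 fell, at low levels (3.91% and 3.26% of all genes). Zfp36, which destabilizes AU-rich messenger RNAs, went from 9.89 and 9.65 to 21.2 in both libraries. Jun, a subunit of AP-1, went from 0.887 and 0.694 to 1.77 and 1.79 CPM, and Junb, Jund and Fosb rose by similar factors (log2 fold changes 1.05 to 1.11). Fosl1, another AP-1 subunit, fell from 1.46 and 1.55 to 0.677 and 0.690. Ier3 rested on 2 and 1 counts at 2 h and lost its call when any 1 of the 4 libraries was left out. The number called up was 3 without 2 h replicate 1 and 3 without 2 h replicate 2. Of 19 NF-kB genes, Ltb, which encodes lymphotoxin beta, was the only one called up, against 3.91% of all genes (0.287 and 0.417 to 0.981 and 1.06 CPM), while all 19 had a positive log2 fold change (median 0.542). Of 28 interferon-stimulated genes, 3 rose (3.91% of all genes), the guanylate-binding proteins Gbp2 (0.235 and 0.347 to 1.31 and 1.14 CPM) and Gbp3, and Ifit1. At an adjusted p under 0.01 and any fold, 12 immediate early, 13 NF-kB and 14 interferon-stimulated genes were higher (19.6% of all genes). In the same order 1, 0 and 0 were lower (14.8% of all genes). The interferon list had a median log2 fold change of 0.452. Gbp3 and Ifit1 lost their calls without 2 h replicate 2 (log2 fold changes 0.86 and 0.95) and without 6 h replicate 2 (0.97 and 1.00, the latter at an adjusted p of 0.026), which left 1 gene of the list called in either case and under DESeq2.

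Among 26 integrin and adhesion genes, 2 rose and 2 fell (3.91% and 3.26% of all genes). Itgb3, the beta subunit of the vitronectin receptor, rose from 13.4 and 12.8 to 49.7 and 48.2 CPM, and Itgax, a leukocyte integrin, from 0.600 and 0.347 to 1.40 and 1.34. Besides Itga5, Itgb5 fell, from 2.24 and 2.78 to 1.14 and 1.16 CPM, a call lost without 2 h replicate 2 (log2 fold change -0.96). Of 6 GIMAP genes, lymphocyte GTPases, only Gimap8 was called up (3.91% of all genes), from 6.71 and 7.29 to 15.9 and 16.1 CPM. Of 6 MHC class II genes, only Ctsh, a cathepsin, was called, down on 12 and 13 counts against 6 and 3 (3.26% of all genes). That call was lost when any 1 library was left out (log2 fold changes -2.19 to -1.11), under DESeq2 and with a replicate block. In this list 2 members were higher at an adjusted p under 0.01 by less than 2-fold. Its summed level went from 33.0 and 31.9 to 46.1 and 42.2 CPM of library total. None of 15 Notch receptors and targets was called by edgeR or DESeq2 (9 at an unadjusted p under 0.05, against 52.7% of all genes). All 7 mitochondrially encoded messenger RNAs that were tested were higher (median log2 fold change 1.021) and 5 passed 2-fold (3.91% of all genes), while 3 did under DESeq2. The largest was that of mt-Nd1, a subunit of complex I, from 22.0 and 21.0 to 52.1 and 53.8 CPM. Mitochondrial transcripts as a whole rose from 0.138 and 0.14% of counts at 2 h to 0.268 and 0.274% at 6 h. By 24 h they took 0.966 and 1.02%, and the cause was not tested.

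**Figure D4:**
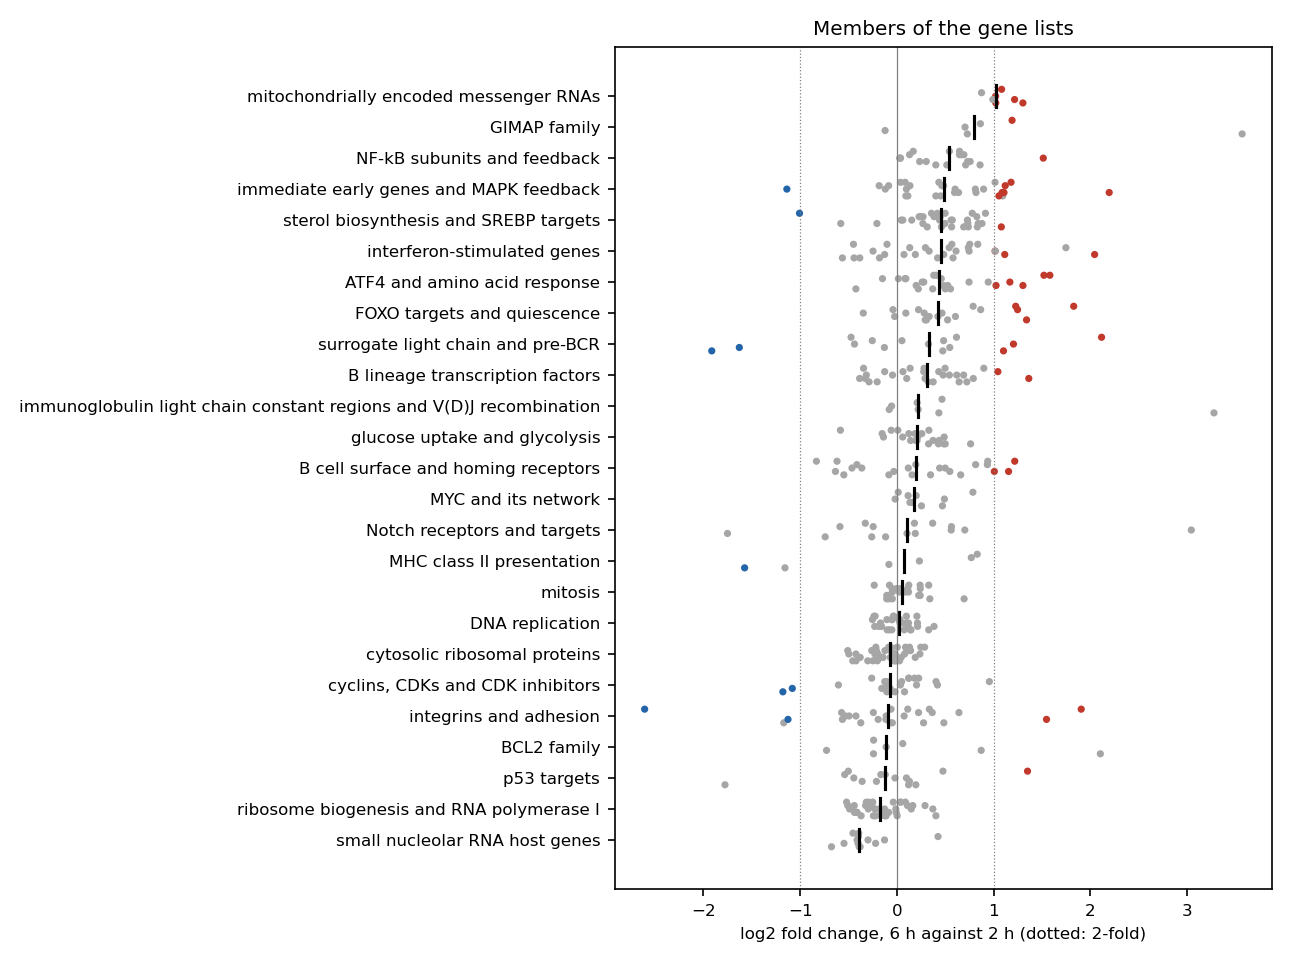
Log2 fold change at 6 h against 2 h of every tested member of 25 gene lists, 1 point per gene, red if called up, blue if called down and grey if not called. Black bars are list medians, lists are ordered by them, and dotted lines mark 2-fold. Mitochondrial messenger RNAs have the highest median (1.021) and small nucleolar RNA host genes the lowest (-0.394).

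Some genes rose in this step and fell again in the next. In the list of 33 sterol genes, 26 were higher at an adjusted p under 0.01 (19.6% of all genes) but only Scd1, a fatty acid desaturase, passed 2-fold (26.2 and 25.9 to 54.4 and 55.7 CPM). Summed over the list, levels stood at 4050 and 4014 CPM of library total at 0 h and at 4806 and 4785 at 2 h. They reached 6565 and 6521 at 6 h, followed by 3346 and 2978 at 12 h. For 23 of the 33 the change from 2 h to 6 h exceeded that from 6 h to 12 h (against 3.84% of all genes). Set against the change from 0 h to 2 h, 2 were called up, 2 down and 29 not called (7.10% up and 6.43% down of all genes). Hmgcs1, an early enzyme of cholesterol synthesis, went from 239.2 and 231.6 to 391.0 and 390.9 CPM, with 103.7 and 74.7 at 12 h. The paper set aside a small non-monotonic gene cluster, rich in sterol pathways, which it linked to tamoxifen. Whether the sterol genes listed here belong to that cluster was not examined. The list of ATF4 and amino acid response genes had 5 of 24 called up (3 under DESeq2, and 3.91% of all genes) and none down. Stc2, a secreted stress-induced glycoprotein, went from 40.2 and 42.4 to 102.1 and 101.8 CPM and then to 50.5 and 51.0 at 12 h, and Ddit4, an inhibitor of mTORC1, from 4.05 and 3.79 to 12.0 and 10.5. Atf3, Slc7a3, a cationic amino acid transporter, and Nupr1 also rose. This list summed to 1604 and 1583 CPM of library total in untreated cells. In the step the sum went from 971 and 963 to 1249 and 1229, and by 12 h it was 541 and 570. For 13 of the 24 the step exceeded the change from 0 h to 2 h (against 7.10% of all genes, 1178 in number), and for 18 that from 6 h to 12 h.

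The opposite course was followed by chaperones and folding enzymes of the endoplasmic reticulum, a group of 26 genes put together after the values were seen. Of these 8 fell (9 under DESeq2, and 3.26% of all genes), none rose and the median log2 fold change was -0.603. Hspa5 (BiP, chr2:34771970-34777547), the main Hsp70 chaperone of this compartment, started from 59.5 and 61.0 CPM in untreated cells. By 1 h it had reached 113.2 and 115.3 and by 2 h 125.4 and 127.3, then 42.7 and 42.4 at 6 h, before 88.9 and 76.0 at 12 h. Its log2 fold change from 2 h to 6 h was -1.57 ± 0.09 (SE, adjusted p = 5.0e-12). Libraries at 6 h lay below those of every earlier time point for Hspa5. Pdia6 and Pdia4, disulfide isomerases, went from 105.1 in both libraries to 35.4 and 35.9 CPM and from 59.0 and 59.8 to 27.9 and 27.8. Calr, a lectin chaperone, went from 74.7 and 76.9 to 29.1 and 27.7, and Hyou1, an Hsp110 chaperone, from 72.9 and 74.0 to 27.6 and 25.9. Hsp90b1 (Grp94) went from 174.1 and 174.2 to 67.5 and 65.2 CPM, and Creld2, a disulfide isomerase-like protein, from 20.2 and 21.0 to 8.78 and 8.56. Sdf2l1, at 3.08 and 3.15 against 1.35 and 1.66 CPM, was not called without 6 h replicate 1. Of the 26 genes, 13 changed more negatively in this step than from 0 h to 2 h (against 6.43% of all genes, 1067 in number) and 10 more negatively than from 6 h to 12 h (against 3.11%). These differences rest in part on the same 2 h or 6 h libraries.

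Many genes of this group carry the endoplasmic reticulum stress response element, made of CCAAT, any 9 bases and CCACG, a site bound by ATF6 together with NF-Y. The element, chosen after the values were seen, was searched on both strands in RefSeq promoter windows of 300 bases, 250 before the start and 50 after, of GRCm38.p6. It was present in 39 of 32851 windows (0.119%), in 19 of 14317 windows of tested genes (0.133%), in 9 of 23 windows of the 26 genes (39.1%), in 7 of 409 windows of genes that fell in the step (1.71%) and in 0 of 450 of genes that rose. At a share of 0.133%, few matches are to be found in 450 windows. The element is known from genes of this kind, so the share in the group is a description and not a test. Of the 8 genes of the group that fell, 7 had a window and 5 had the element. The same 5 genes supply 5 of the 7 windows with the element among genes that fell. Their 250 bases before the RefSeq start are printed because they hold the element that these genes have in common. They run 5′ to 3′ on the strand of the gene, with each match in capitals. A match in Calr and Creld2, and the second in Hsp90b1, is on the opposite strand and reads CGTGG, 9 bases and ATTGG. The regions are chr2:34771840-34772089 for Hspa5, chr10:86705445-86705694 for Hsp90b1, chr12:17266339-17266588 for Pdia6, chr8:84846932-84847181 for Calr and chr15:88819396-88819645 for Creld2. By the GENCODE position given above, the Hspa5 gene starts inside its region and before the marked element.
Hspa5: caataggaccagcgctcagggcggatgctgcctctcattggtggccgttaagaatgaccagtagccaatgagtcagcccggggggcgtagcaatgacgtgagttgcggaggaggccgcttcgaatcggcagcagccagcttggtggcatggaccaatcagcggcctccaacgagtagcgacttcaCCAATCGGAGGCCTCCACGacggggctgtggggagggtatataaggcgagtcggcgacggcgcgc
Hsp90b1: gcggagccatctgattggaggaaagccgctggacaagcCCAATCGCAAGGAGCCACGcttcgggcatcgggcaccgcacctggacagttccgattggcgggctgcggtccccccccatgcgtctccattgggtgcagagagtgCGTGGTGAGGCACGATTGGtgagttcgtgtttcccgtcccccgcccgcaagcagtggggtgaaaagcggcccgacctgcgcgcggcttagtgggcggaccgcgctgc
Pdia6: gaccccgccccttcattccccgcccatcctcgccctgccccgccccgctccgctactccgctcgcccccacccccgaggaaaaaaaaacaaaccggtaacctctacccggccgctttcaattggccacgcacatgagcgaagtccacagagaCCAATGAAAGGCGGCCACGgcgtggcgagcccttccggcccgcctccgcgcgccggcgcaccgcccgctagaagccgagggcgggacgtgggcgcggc
Calr: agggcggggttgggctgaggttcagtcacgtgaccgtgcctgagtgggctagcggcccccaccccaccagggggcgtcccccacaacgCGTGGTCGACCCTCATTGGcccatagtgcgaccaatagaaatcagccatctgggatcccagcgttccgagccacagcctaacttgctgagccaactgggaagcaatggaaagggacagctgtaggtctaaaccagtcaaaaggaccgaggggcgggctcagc
Creld2: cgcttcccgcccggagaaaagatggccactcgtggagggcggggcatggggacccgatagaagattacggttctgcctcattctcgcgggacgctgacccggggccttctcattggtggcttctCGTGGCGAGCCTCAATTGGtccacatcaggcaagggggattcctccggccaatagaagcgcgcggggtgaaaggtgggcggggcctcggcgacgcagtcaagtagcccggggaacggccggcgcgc

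Counted from the RefSeq start, the element began at -65 in Hspa5, -212 and -107 in Hsp90b1, -98 in Pdia6, -162 in Calr and -126 in Creld2. Canx, Derl3, Dnajc3 and Syvn1 also have the element and were not called. Other motifs were searched on both strands, and TGGGAA, the core of IKZF1 sites, was in 23.3% of windows of genes that rose, 25.4% of those that fell, 23.8% of those of tested genes and 25.6% of all. For CACGTG, the E-box of MYC, the shares in that order were 5.78%, 7.33%, 9.29% and 7.15%, and for TGATGNAA, part of ATF4 sites, 4.89%, 2.20%, 2.68% and 3.97%. GAAA, any 2 bases and GAAA, the core of the interferon-stimulated response element, was in 6.00%, 2.44%, 3.12% and 3.44%. A match of letters does not show a bound site.

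**Figure D5:**
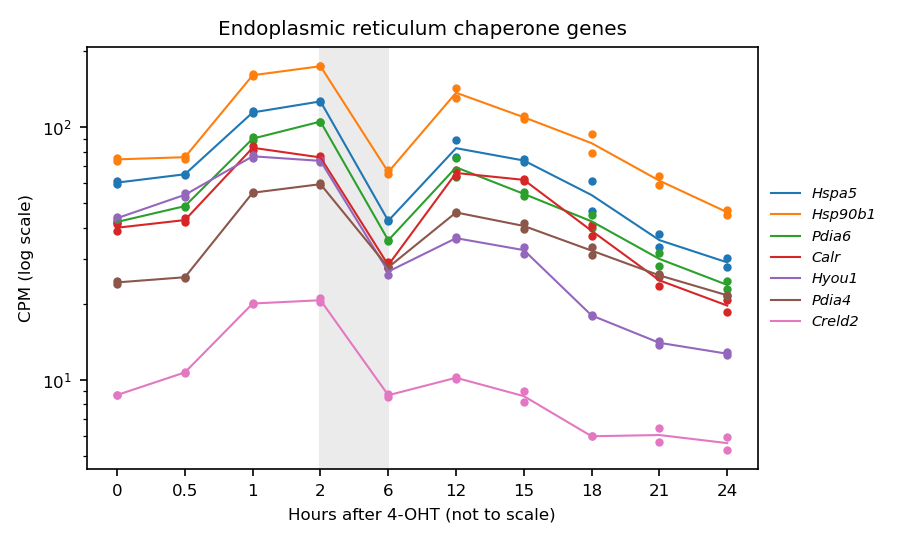
Level in CPM (log axis) of 7 endoplasmic reticulum chaperone and folding genes at each of 10 time points of 4-OHT treatment. Points are single libraries, lines join means of 2, the grey band marks the step from 2 h to 6 h, and hours are evenly spaced rather than to scale. All 7 are higher at 1 h and 2 h than at 0 h, lower at 6 h than at 2 h, and higher again at 12 h.

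Whether the genes of this step stayed changed was read in libraries that the step does not use. At 24 h against 0 h, 3323 genes were called up (20% of all tested) and 3329 down (20.1%). Of the 649 genes that rose from 2 h to 6 h, 453 were up at 24 h against 0 h (69.8%) and 21 down. Of the 542 that fell, 316 were down (58.3%) and 17 up. Between 12 h and 24 h, when 1067 genes were called up (6.43%) and 1502 down (9.05%), 181 of the genes that rose were up again and 63 down, and 103 of those that fell were down again and 13 up. Taken as a share of the later lists, genes that rose in the step made up 13.6% of the genes up at 24 h and genes that fell 9.49% of those down. The median level of the genes that rose, relative to 0 h, was 0.33 and 0.34 on the log2 scale at 2 h and 1.69 and 1.76 by 6 h. It stayed at 1.70 and 1.61 at 12 h, with 1.85 and 1.90 by 24 h. For the genes that fell it was 0.24 and 0.23 at 2 h and -1.06 and -1.07 at 6 h, then -0.76 and -0.68 at 12 h, and -1.14 and -1.25 by 24 h. Both sets were selected on the 2 h and 6 h libraries, which can widen the difference between these 2 time points. Of the values given, only those at 12 h and 24 h come from libraries outside the step.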

How the data were processed

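Chromatin-associated RNA was sequenced in 20 libraries. The authors used STAR within nf-core/rnaseq to map reads to mm10 (GRCm38), assigned them to genes, introns included, by featureCounts, and deposited raw counts without normalization. CASAVA 2.17 is named in the submitters' processing notes. The annotation release, strand setting and handling of shared reads are not given in the sources used here. Groups came from the sample titles, and all 20 columns matched a title.

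Genes reaching 10 counts in 2 or more libraries entered 1 edgeR 4.0.16 quasi-likelihood model (R 4.3.3) of all 20 libraries, with time point as factor and TMM scaling, with Benjamini-Hochberg adjustment, and called at an adjusted p under 0.01 and a fold change above 2. The standard error of a log2 fold change is its size divided by the root of F. Differences between steps were contrasts of the same model. Positions came from GENCODE M21 (55240 of 56239 identifiers) and promoters from RefSeq. The test was checked on simulated counts, with changes well above 2-fold put only into genes with many counts. Detection of changes at few counts or near 2-fold was not checked. Counts carry no molecular identifiers, so depth covers counting error only. Replicate libraries differed by more than counting noise (chi-square per degree of freedom 1.26 at 2 h and 1.43 at 6 h).

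The step, gene lists and tests were chosen with earlier results of these data known. Genes named are the 12 largest rises and 12 largest falls (protein-coding, at least 1 CPM over the 4 libraries, same direction in both pairs), up to 4 called members of each list, Ikzf1, the study's targets, the 3 largest rises and 3 largest falls among first-wave genes, and up to 4 genes at 3 counts or fewer. Genes outside it, named for their role or as examples, and the endoplasmic reticulum, Ifi200, Trim and Klra groups were chosen after their values were seen. Some genes that the rule names are not reported here. Alternatives were DESeq2 1.42.0 (test and size factors), library totals, other filters, an adjusted p under 0.05, a test against 2-fold, the 4 libraries alone, a replicate block and leaving out each library.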

Additional observations from a re-analysis of the deposited data

How the results depend on the processing

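The 649 rises and 542 falls became 156 and 89 in a test against a 2-fold change, and 280 and 262 with at least 10 counts required in every library, which tested 12451 genes. DESeq2 gave 461 and 410. Leaving out 1 of the 4 libraries gave 515 to 538 rises and 412 to 426 falls. The share of rises among calls was 63.7% in the test against 2-fold, against 54.5%. Genes down at 1 h that fell on were 38 with 10 counts everywhere, 11 against 2-fold and 102 at an adjusted p under 0.05 (54 to 63 without 1 library), and those that rose 22, 2 and 63 (31 to 33). Genes up at 1 h that rose on were 28, 9 and 93 (55 to 58), and those that fell 14 and 0 in the first 2 settings (23 to 25). Rises up at 24 h were 217 and 110 (375 to 407), and falls down at 24 h 150 and 55 (258 to 265). Differences from the previous step were 504 up and 338 down against 2-fold (982 to 1126 and 824 to 991 without 1 library). Differences from the next step were 376 up with 10 counts everywhere, 267 up and 140 down against 2-fold, and 466 to 594 up and 321 to 473 down without 1 library. Beyond fewer genes tested and the stricter threshold, the cause was not tested. Of 1365 alternative values for 108 results on named genes, 1274 kept their call, 88 lost it, 3 gained it and none changed direction. Same-numbered libraries of 2 h and 6 h did not deviate together (correlation 0.02), and with the replicate block 646 genes rose and 533 fell. Depth limits genes at a few counts.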

Other observations

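Groups of neighboring genes held several members that rose between 2 h and 6 h. They were picked after their values were seen, so their counts are descriptions. Of 11 tested genes of the Ifi200 family, DNA-sensing proteins encoded in a cluster on chromosome 1, 4 rose (3.91% of all genes) and none fell (median log2 fold change 0.972). Ifi203 went from 76.9 and 75.8 CPM at 2 h to 190.2 and 187.1 at 6 h, and Mndal, which overlaps it, from 73.1 and 71.0 to 153.3 and 154.2. Ifi209 went from 0.574 and 0.717 to 1.94 and 1.92 CPM and stood at 26.0 and 25.9 at 24 h. Ifi204, at 1.20 and 1.41 against 2.50 and 3.02 CPM, was not called without 2 h replicate 1 or 6 h replicate 2.

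Of 7 neighboring Trim genes on chromosome 7, related to the restriction factor Trim5, 4 rose (3.91% of all genes). Trim5 went from 4.72 and 5.02 to 17.6 and 18.0 CPM (log2 fold change 1.87 ± 0.09, adjusted p = 3.6e-13 by edgeR) and Trim12a from 9.06 and 8.88 to 21.8 and 22.6. Trim30b, at 1.99 and 1.89 CPM at 0 h, went from 0.418 and 0.301 to 1.47 and 1.36 in the step. Of 9 Klra genes, which encode Ly49 receptors, 3 were called up (3.91% of all genes). Klra1 rose from 43.5 and 43.4 to 96.9 and 100.6 CPM. Klra7 rose as well, and Klra9 was called on 0 and 1 counts against 2 and 16. These families hold near-identical copies, and reads may be divided wrongly among their members.

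Genes at 3 counts or fewer on one side of the step include Phldb2, a pleckstrin homology domain protein (3 and 3 counts at 2 h, 32 and 38 at 6 h), and Gm21738 (3 and 2 against 54 and 73). In the other direction Rspo4, a Wnt pathway ligand, had 22 and 16 counts at 2 h and 0 and 1 at 6 h. Spock1, a matrix proteoglycan, had 18 and 20 against 1 and 1, Spdef, an ETS factor, 20 and 17 against 1 and 1, and Gm26509 16 and 17 against 3 and 2. Of markers of other cell types, Cd8b1 was called down on 26 and 24 against 9 and 8 counts and Jchain up on 24 and 39 against 74 and 88.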
